A study of Arabidopsis thaliana with 3 samples.

Results

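Wild-type Arabidopsis thaliana leaves under water stress were compared with wild-type leaves under normal growth. The comparison used 2 of the 3 arrays of the series, and on each of them only the wild-type channel, so 2 of 6 channels. The water stress array carried RNA of plants left without water for 5 days, and the normal growth array carried RNA of plants kept watered. Both came from rosette leaves of 5-week-old plants of the Col-0 ecotype with no transgene, grown at 22 °C in days of 16 h light and nights of 8 h. On both arrays the wild-type RNA was in the Cy3 channel, and the Cy5 channel held RNA of AhNF-YC-OE, a transgenic line in the same ecotype; no source used here names its promoter or its number of independent lines. The third array held both genotypes 24 h after plants stressed for 8 days were watered again. Nor does any of them say how many plants gave the RNA of an array. With 1 array a side, drought and array differ together and cannot be told apart, no value below has a replicate check, and no p-value is given.

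Leaves that lose water make abscisic acid (ABA), a hormone cut from carotenoids by the NCED enzymes and inactivated by the CYP707A enzymes. ABA binds the PYR and PYL receptors, which then inhibit PP2C phosphatases and so release SnRK2 kinases. These kinases act on transcription factors that turn on protective genes, among them the dehydrins and other LEA proteins, hydrophilic proteins that build up in drying tissue. Plants under drought also accumulate proline and raffinose-family sugars, close their stomata and slow their growth.

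Brightness differed between the arrays before any normalization. The median intensity of the 29234 gene spots was 1422 under water stress and 4208 under normal growth, and the median log2 ratio of raw intensities was −0.62. Quantile normalization gave both channels the same distribution, so a gene can have equal or lower raw intensity under water stress and still a positive log2 difference. Every log2 difference below is the normalized level under water stress minus that under normal growth, and each intensity is the raw mean of a spot with its background included.

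A gene name here is the annotation of a spot, and several checks bear on how far that name can be trusted. For 2055 pairs of spots annotated to one locus, the level of a spot (mean of both arrays) correlated with that of its partner at r = 0.14, and the log2 difference at r = 0.18 (Spearman 0.15); these are correlations across pairs on the same 2 slides. Of 1010 pairs in which either spot passed 2-fold, both did so in the same direction in 139 and in opposite directions in 55. The labelled tissue was checked on the same footing. Nuclear genes of the light reactions, which leaves express strongly, had a median level at the 53.5th percentile of all loci under water stress and the 52.4th under normal growth. Seed storage protein genes, which leaves lack, stood at the 72.9th and 70.2nd percentile, and pollen genes at the 95th and 87.9th. Root markers stood at the 60.7th and 45.9th. Spots named for leaf genes were thus not brighter than spots named for seed or pollen genes, nor than those named for root genes under water stress. Whether annotation and spots are matched correctly was not tested and cannot be settled from the files used here, so every gene value below is the value of the spot that carries that name.

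Control spots showed how large a difference these arrays gave without a plant gene. The 144 spots of 12 randomly generated negative control sequences had a median intensity of 663 under water stress and 976 under normal growth, with 5% of them above 18958 and 21389. Their median log2 difference was 0.50, and 20.1% were higher under water stress by 2-fold or more while 1.39% were lower by as much. The 92 spots of 10 Alien controls, sequences foreign to plants, had a median of 0.93, with 45.7% at least 2-fold higher and none lower. The 510 spots annotated as empty leaned the other way, with a median of −0.78, none at least 2-fold higher and 45.3% lower. The part of these shifts in the gene results was not tested.

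**Figure D1:**
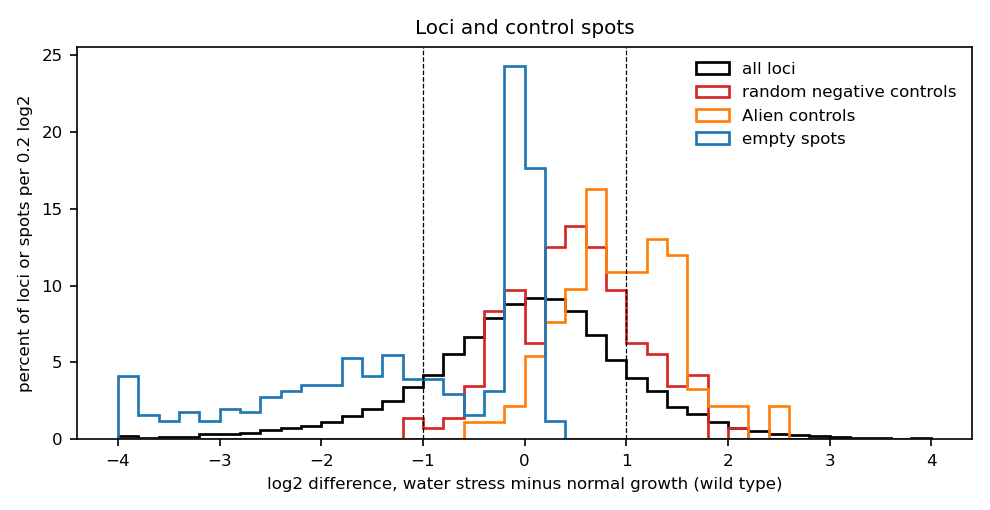
Distribution of the log2 difference, water stress minus normal growth in wild type, in percent of loci or spots per bin of 0.2, for all loci (black), negative controls (red), Alien controls (orange) and empty spots (blue); values past 4 in size are drawn in the end bins and dashed lines mark 2-fold. The negative and Alien controls sit to the right of the loci, with medians of 0.50 and 0.93, and the empty spots have a long left tail.

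Across the genome, equal shares of loci were higher and lower under water stress. Of 26014 loci above background on at least 1 of the 2 arrays, 3684 (14.2%) were higher and 3700 (14.2%) lower by 2-fold or more, where 2-fold is a log2 difference of 1 in size. At 4-fold, 595 were higher and 990 lower, and at 8-fold 76 were higher and 225 lower. The SD of the log2 difference over all loci was 1.03, its median was 0.06, and 48.8% of loci lay within 1.5-fold. The equal split depended on the scaling: with each channel set to the same median in place of quantile normalization, 12474 loci were higher and 2023 lower, which makes 86.0% of the calls higher, and the median of all loci moved to 0.94. Levels on the arrays correlated across loci at r = 0.91. Loci past 2-fold were commonest at middle brightness, with 24.3% higher and 21.3% lower in the bin ranked 6 of 10 by level, against 1.15% and 1.23% in the brightest of the 10 bins. Spots annotated as empty set a floor for these calls: 5% of them were brighter than 400 under water stress and than 5668 under normal growth. On the array where a locus was brighter, 3595 of the higher and 2061 of the lower loci exceeded that floor. These counts rest on unlike floors, since the one under normal growth is above the median gene spot there, 4208. Of the 12361 loci above the floor on both arrays, 947 were higher and 2035 lower.

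**Figure D2:**
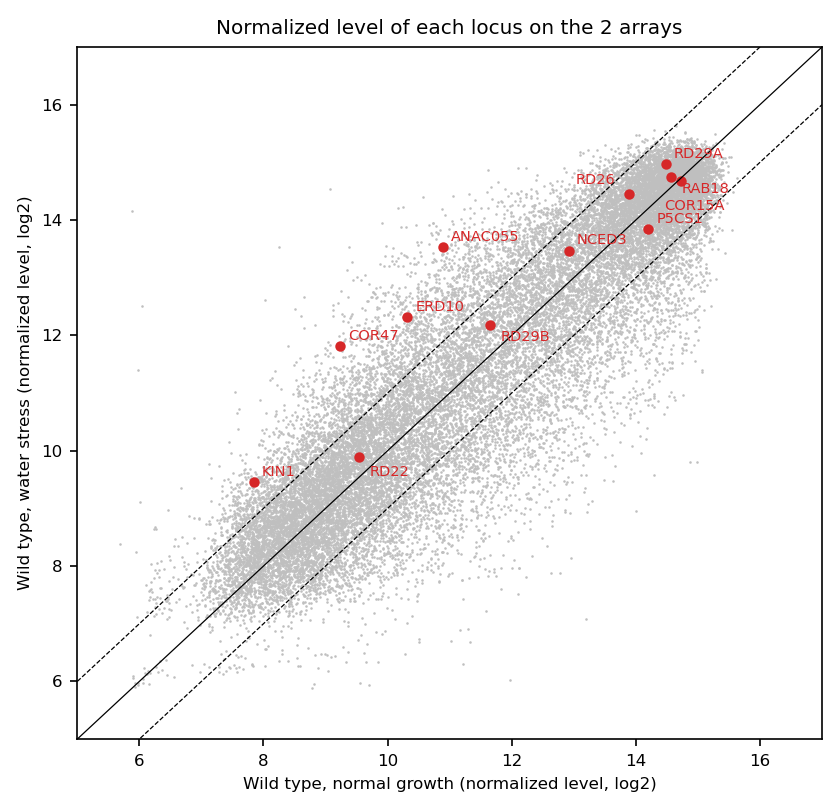
Normalized log2 level of each locus under water stress (vertical axis) against normal growth (horizontal axis), wild type; the solid line marks equal levels, dashed lines mark 2-fold, and 12 drought genes are in red. COR47, ERD10, ANAC055 and KIN1 lie above the upper dashed line, and the other 8 lie between the lines.

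Calls also depended on where a spot was printed. In block rows 1 to 5 of the 12 rows of print blocks, 16.7% to 24.2% of gene spots were at least 2-fold higher under water stress, against 8.5% to 9.8% in rows 8 to 11. Spots at least 2-fold lower made up 7.3% to 12% in rows 1 to 5 and 19.0% to 20.5% in rows 8 to 11. In block column 1, 19.5% of spots were higher and 10.4% lower, against 11.2% and 16.6% in column 4. Whether the slide position or the RNA set these shares was not tested. Centring each block on its own median left 3070 loci higher and 3715 lower.

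**Figure D3:**
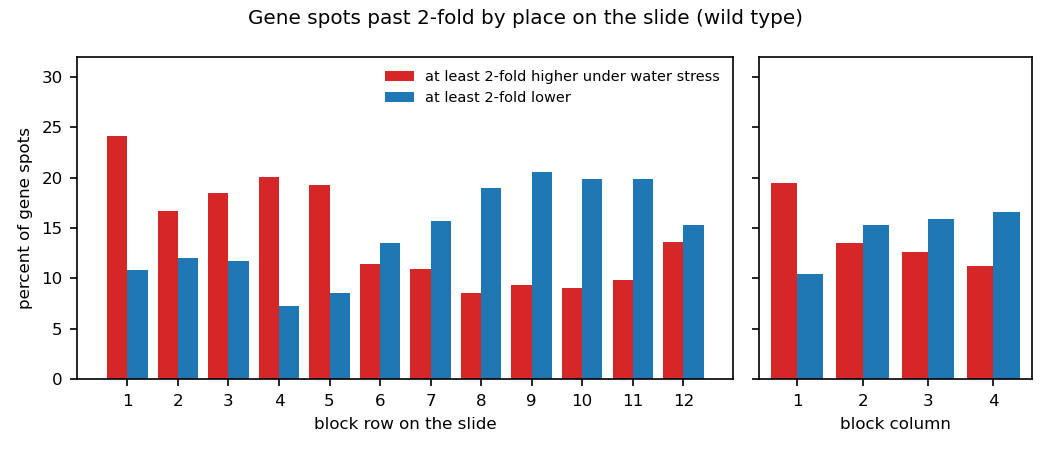
Percent of gene spots at least 2-fold higher (red) and lower (blue) under water stress in wild type, by block row (left) and block column (right) of the slide. Higher spots are commoner in rows 1 to 5, with up to 24.2%, and lower spots in rows 8 to 11, with up to 20.5%.

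Some loci were printed many times, which gave repeated measures of a gene on the same slides; the 22 control features, with 8 to 12 spots each, had SDs of 0.22 to 0.71. The 11 loci with 13 or more spots (159 spots in all) were picked for that number after values had been seen. Their SD between spots ranged from 0.36 to 1.01 on the log2 scale, with a median of 0.65; it covers the spread over the slide and not that between plants, and the files used here do not say whether the spots of a locus hold 1 oligonucleotide. AT2G17190, a gene with a ubiquitin domain, had intensities of 4340 to 9235 under water stress and 2693 to 9194 under normal growth. All 13 of its spots were at least 2-fold higher under water stress, with a mean of 2.05 ± 0.46 (SD over spots). Its spots in block rows 1 and 2 ran from 2.28 to 2.86, and those in rows 9 and 10 from 1.29 to 2.12. Of the 15 spots of AT5G46430, annotated as a cytosolic ribosomal protein, 13 were at least 2-fold higher, with a mean of 2.21 ± 1.01. The plastid chaperone gene cpHsc70-2 had 8 of 13 spots past 2-fold and a mean of 1.44 ± 0.65, and the tubulin gene TUB1 had 5 of 13 and 1.05 ± 0.97. For cpHsc70-2 and TUB1 too, the values varied with place on the slide. The TUB1 spots past 2-fold, from 1.71 to 2.70, all lay in block rows 1 and 2, and those in rows 5 to 10 ran from −0.10 to 0.99. The cpHsc70-2 spots past 2-fold lay in rows 3 to 8, and those in rows 11 and 12 ran from 0.56 to 0.89. Whether position or the RNA set these values was not tested.

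Means at least 2-fold lower belonged to 2 of these loci. ACX4, an acyl-CoA oxidase of fatty acid breakdown in peroxisomes, had all 13 spots below 0, between −2.65 and −0.42. Of these, 7 were at least 2-fold lower, and the mean was −1.22 ± 0.71. The ACX4 spots in block rows 1 to 6 ran from −1.49 to −0.42, and those in rows 8 to 10 from −2.65 to −1.28. ACT2, an actin gene often used as a reference, had 27 spots in 8 block rows. They ran from −2.50 to 0.87, with 14 lower by 2-fold or more, none higher by as much and a mean of −1.02 ± 0.92. The spots of ACT2 therefore differed in sign, from less than 2-fold higher to more than 4-fold lower on the same pair of slides. The tubulin genes TUA1 and TUB2, the ubiquitin-like UBL5, the serine synthesis enzyme PGDH and the plastid ribosomal protein gene RPS9 had means between −0.77 and 0.45. RPS9, at −0.77, had 6 of 13 spots at least 2-fold lower, all in block rows 7 to 12. Its spots in rows 3 and 4 ran from −0.80 to 0.61. Whether position or the RNA set the values of ACX4 and RPS9 was not tested.

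**Figure D4:**
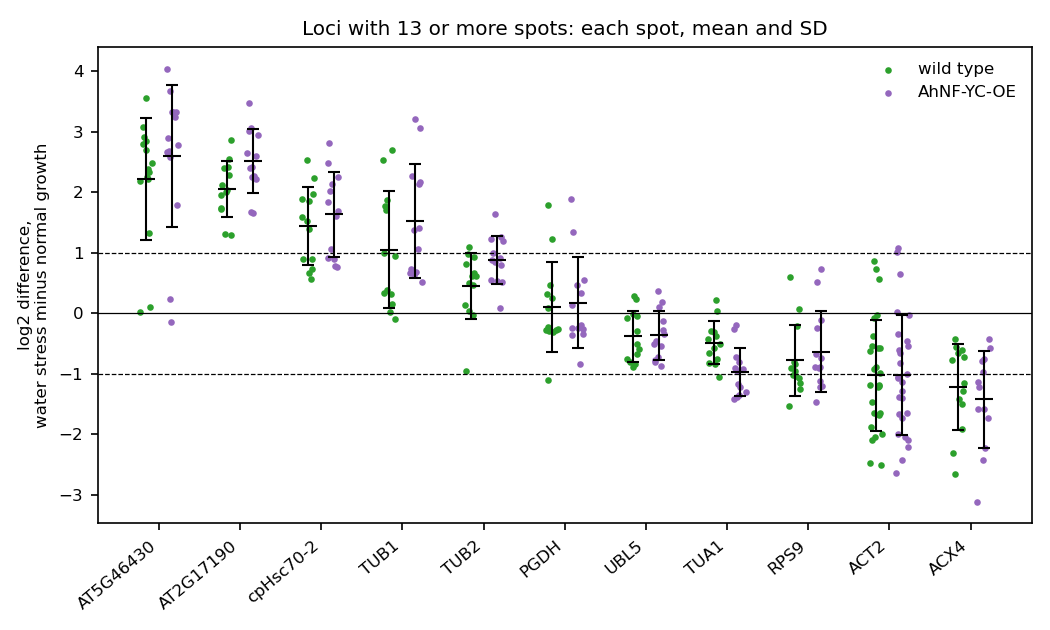
Log2 difference, water stress minus normal growth, of every spot of the 11 loci with 13 or more spots, for wild type (green, left of each pair) and AhNF-YC-OE on the same slides (purple), with the mean and SD over spots in black and dashed lines at 2-fold. AT2G17190 is the locus whose spots all lie above the upper line, and the spots of ACT2 run from −2.50 to 0.87 in wild type.

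Among the 1092 loci with 3 or more spots, few had every spot past 2-fold in the same direction. These were 3 higher loci (0.27%) and 6 lower ones (0.55%), while 82 loci had spots past 2-fold both ways. Of all gene spots, 14.2% were at least 2-fold higher and 14.6% lower. Whether these loci are more than unrelated spots would give was not tested. The higher loci were AT2G17190, AT5G52660 with 3 spots from 1.19 to 1.99, and CPN20, a co-chaperonin of the chloroplast, with 3 spots from 1.00 to 1.68. CPN20 read 28209, 2115 and 477 at its spots under water stress, against 18023, 1692 and 212 under normal growth. Its spots thus differed widely in brightness, and the shared direction is what the locus was picked for. The lower loci were EMB2816, VAT1, ALIS5, AT1G66760, the histone demethylase gene JMJD5 and the disulfide isomerase-like gene PDIL5-1. EMB2816 ran from −2.87 to −1.32, VAT1 from −2.45 to −1.32 and AT1G66760 from −3.26 to −1.80.

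The 12 drought genes that were named whatever their value fell into 4 that were at least 2-fold higher and 8 within 2-fold. COR47, a dehydrin, had an intensity of 2087 under water stress and 713 under normal growth, a log2 difference of 2.57. ERD10, a dehydrin next to COR47 on chromosome 1, had 3 spots that read 2987, 1011 and 944 under water stress, against 1956, 502 and 1731 under normal growth, with log2 differences of 2.0, 1.78 and 0.39. So 2 of the 3 spots of ERD10 passed 2-fold. ANAC055, a NAC transcription factor of the stress response, read 7950 against 3171, with a log2 difference of 2.64. KIN1, a small cold- and ABA-induced protein, read 560 against 177, with 1.62. All 4 genes read below the empty-spot floor of 5668 under normal growth and above that of 400 under water stress. Its near-identical neighbour KIN2, with 1438 under water stress and 945 under normal growth, had 1.74. Whether either probe tells the pair apart was not tested. When each print block was centred on its median, COR47 had 1.75, ERD10 1.79 at its brightest spot, ANAC055 2.53, KIN1 0.79 and KIN2 1.03.

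The other 8, classic drought markers among them, did not pass 2-fold after quantile normalization. Scaled to the same median, where all loci sat at 0.94, RD29A had 1.66, RD26 1.41, RAB18 1.35, COR15A 1.15 and RD22 1.04, so 5 of the 8 passed it. RD29A read 28921 under water stress and 27313 under normal growth, a log2 difference of 0.48, and its neighbour RD29B read 2726 against 5536, with 0.53. The dehydrin gene RAB18 (AT5G66400) read 24387 against 28477, with 0.18. RD29A and RAB18 were near the top of the brightness range on both arrays, where few loci of any kind passed 2-fold. NCED3, the drought-induced enzyme of ABA synthesis, had 0.56, RD22 had 0.36, and P5CS1, which starts proline synthesis, had −0.35. COR15A, a LEA protein of the chloroplast, had −0.05 at its brightest spot and −0.63 and −2.41 at the others. RD26, a NAC factor, had 0.55 at 1 spot and −1.35 at the other. COR15A and RD26 thus each had a spot at least 2-fold lower and a spot within 2-fold.

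Gene lists were read by the number of members past 2-fold and by the median, beside 14.2% higher, 14.2% lower and a median of 0.06 for all loci. Some members counted as lower did not exceed the empty-spot floor of 5668 on the normal growth array: LTP4, ANAC019, NCED9, CYP707A2, P5CS2, GAPA2, HEMB1, PORC, XTH6, XTH9, PIP2;2, TIP1;1, TIP1;2, CYCD1;1, VND7 and SESA1. Many members counted as higher were under that floor on the normal growth array too, COR47, ANAC055, SUS3 and EXPB3 among them. The dehydrins had the highest median of the lists with 10 or more measured members, 0.94, with 4 of 10 at least 2-fold higher and 1 lower. Beside COR47 and ERD10 these were AT4G38410, at 7853 under water stress and 3845 under normal growth, with 2.38, and LTI30, with 1.06. ERD14 was the lower one, at 6307 against 27076 and −1.20. Scaled to the median, where all loci sat at 0.94, the dehydrins had a median of 1.86. With print blocks centred, where all loci sat at 0.0009, they had 0.71. In AhNF-YC-OE on the same slides the dehydrin median was 0.82.

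Other LEA and cold-regulated proteins had 3 of 12 members higher, 1 lower and a median of 0.41. Higher were KIN1, KIN2 and EM1, a seed LEA protein, with 1.26. SAG21, a LEA-like protein of ageing leaves, read 822 under water stress and 11984 under normal growth, with −2.51. Of 17 measured drought- and ABA-induced genes outside these lists, 3 were higher and 3 lower, with a median of 0.32. The lipid transfer protein LTP3 had 1.99 at its brighter spot and 0.20 at the other. HVA22D had 1.73, which was 0.91 after the blocks were centred, and the plastid protease gene ERD1 had 1.01. HVA22B, a relative of HVA22D, read 461 against 10377, with −3.58, and the sugar transporter ERD6 read 5400 against 39410, with −2.05. HVA22E, of the same family, had 0.60.

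Of 19 stress transcription factors, 3 were higher and 2 lower, with a median of 0.10. ANAC055, the homeobox factor HB-12 with 1.28 and the ABA-responsive bZIP factor ABF2 with 1.23 were higher. ABI4, an ABA-response factor, had −1.75. ANAC019, the closest relative of ANAC055 in this list, read 269 under water stress and 742 under normal growth, with −1.62, and had 0.0565 when the channels were scaled to the same median. DREB2A and CBF3, which bind the drought-responsive element, had −0.22 and 0.01.

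Genes of ABA synthesis and turnover had 2 of 14 members higher and 4 lower, with a median of 0.07. Lower were CYP707A1 with −2.62, CYP707A3 with −1.27 and CYP707A2 with −1.03, which inactivate ABA, and NCED9 with −2.62, which serves its synthesis. CYP707A1 and CYP707A3 each had 3 spots, the highest at 0.87 and 0.81. CYP707A2 had −0.65 after the blocks were centred, −0.91 under loess and −0.63 scaled to the median, where CYP707A3 had −0.66. For CYP707A1 the authors' deposited normalized intensities, matched by transcript name and not by spot, gave −0.63. That transcript name was on the spots at 0.87 and −2.62, so which spot the deposited value belongs to cannot be told. NCED2 had 1.64 and CYP707A4 had 1.48. The enzymes of synthesis and of breakdown were both split.

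The list of ABA receptors, phosphatases and kinases had 6 of 21 members higher and none lower, with a median of 0.20; in AhNF-YC-OE 3 were higher and 1 lower, and the median was −0.07. The receptors PYL8, PYL2 and PYL5 had 1.88, 1.60 and 1.48. PYL8 had a second spot at 0.22, PYL5 had 0.48 under loess between the arrays, and PYL2 and PYL5 read no more than 555 and 279 under water stress, against 174 and 85.9 under normal growth, where the empty-spot floors were 400 and 5668. The PP2C phosphatases HAB1, AHG1 and HAI1 had 1.37, 1.27 and 1.18. The SnRK2 kinase OST1, which closes stomata, had 0.57.

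Proline genes had 3 of 8 measured members higher, 1 lower and a median of 0.72. PRODH2, which breaks proline down, read 5438 under water stress and 4823 under normal growth, with 1.63. The transporter PROT1 had 1.04, and P5CR, the last enzyme of synthesis, had 1.03, which was 0.68 after the blocks were centred. P5CS2, a first-step enzyme, read 627 against 3244, with −1.16. P5CS1, P5CS2 and P5CR, all of synthesis, thus differed in sign.

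Sugar and starch genes had 3 of 11 members higher and 2 lower, with a median of 0.05. The sucrose synthases SUS3 and SUS1 had 2.31 and 1.1, and the starch-degrading β-amylase gene BAM3 (AT4G17090) had 1.12. SUS3 read 9840 under water stress and 4810 under normal growth. DIN10, of raffinose metabolism, read 457 against 7380, with −3.09, and the trehalose phosphate synthase TPS1 had −1.20. GOLS1 and GOLS2, which make galactinol for raffinose, had 0.29 and 0.05.

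Photosynthesis genes were not lower as a group. Of 46 nuclear light reaction genes, 9 were higher and 4 lower by 2-fold or more, with a median of 0.01. FNR1, which passes electrons to NADP+, read 6096 under water stress and 4276 under normal growth, with 1.95, and the antenna protein gene LHCB1.4 had 1.77. PSAO of photosystem I read 5804 against 39615, with −1.97, and the plastocyanin gene PETE1 had −1.85. Its relative PETE2 had 0.23. In the LHCB1 family, whose members are nearly identical in sequence, values ran from −0.86 in LHCB1.3 to 1.77 in LHCB1.4, so signal of one member on another's probe cannot be told apart.

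Calvin cycle genes had 3 of 21 members higher and 2 lower, with a median of 0.27. Phosphoribulokinase (PRK) read 836 under water stress and 309 under normal growth, with 1.91, while CP12-1, the small protein that holds PRK inactive in the dark, read 3456 against 22612, with −1.57. The glyceraldehyde-3-phosphate dehydrogenase subunits GAPA and GAPA2 had 1.24 and −1.19. Chlorophyll synthesis had a median of −0.37, with 1 of 15 higher (CHLI1, 2.12) and 3 lower (HEMB1 with −1.59, GSA1 with −1.40 and PORC with −1.10). Chlorophyll breakdown and senescence had 3 of 16 higher and none lower, with a median of 0.10. Higher were ACD2, a reductase of chlorophyll breakdown, with 1.89, WRKY70 with 1.59 and the NAC factor ORE1 with 1.13. ORE1 read 433 against 145 and had 0.43 after the blocks were centred.

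Genes of cell wall loosening and water flow were split. Expansins and xyloglucan endotransglucosylases had 1 of 21 members higher, EXPB3 with 2817 under water stress and 801 under normal growth and a log2 difference of 2.87. XTH6, EXPA1 and XTH9 were lower, with −1.28, −1.16 and −1.06. Aquaporins, the water channels of the plasma membrane (PIP) and the vacuole (TIP), had 6 of 23 members higher and 3 lower, with a median of 0.08. PIP2;6, PIP1;5 and PIP2;4 had 2.3, 1.59 and 1.44, TIP1;1 had −1.50 and PIP2;2 had −1.29. Cuticular wax genes had none of 9 past 2-fold and a median of 0.31.

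Lists of other stresses held few members past 2-fold. Antioxidant enzymes had 1 of 15 lower, the iron superoxide dismutase FSD1 with −2.51, its second spot at −0.64, and a median of 0.25. Heat shock factors and proteins had 2 of 15 higher, HSFA6A with 1.75 and HSFA6B with 1.06, and a median of 0.19. Jasmonate genes had 2 of 15 higher, the repressors JAZ6 with 2.34 and JAZ3 with 1.96, and 1 lower, the vegetative storage protein VSP1 with −1.49, with a median of −0.10. Salicylate and defence genes had none of 8 past 2-fold and a median of −0.20.

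The circadian clock list had 4 of 16 members higher and none lower, with a median of 0.22. RVE8 read 8551 under water stress and 5473 under normal growth, with 1.97, PRR3 had 1.80, and PRR9 had 1.14 at its brightest spot and −1.26 at the lowest. LHY, a morning factor, counts as higher but was not above background under normal growth. Its spot read 380 there, under a local background of 476, and 375 under water stress. Against the lowest level of gene spots above background on the normal growth array its difference was 2.46. With a local background that high, no minimum difference follows. LHY measured 1.53 under loess between the arrays and −0.14 without background correction. No source used here gives the time of day of each harvest. Cell cycle genes had 2 of 11 higher (CYCD3;1 with 1.71 and CDKA;1 with 1.27) and 1 lower (CYCD1;1, −2.67), with a median of −0.04.

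Genes often used as references were as spread as the drought genes. Of 12, 3 were higher by 2-fold or more, UBC21 with 1.61, ACT7 with 1.33 and TIP41L with 1.18, and 2 were lower, ACT2 with −1.87 at its brightest spot and UBQ10 with −1.22; the median was 0.59. UBQ10 read 4799 under water stress and 23351 under normal growth. The 32 loci of the mitochondrial genome had 8 higher and 6 lower, with a median of 0.04, from ATMG00910 with 2.94 to ATMG00550 with −1.97. The 4 cytosolic ribosomal protein genes found by annotation were within 2-fold at the brightest spot, with a median of 0.09. One of them, AT5G46430, counts there only through a spot at 0.02, while 13 of its 15 spots were at least 2-fold higher, as given above. The single chloroplast genome locus, ATCG00850, had 1.58.

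Markers of other cell types and organs were on both sides of 0. Guard cell markers had 1 of 8 higher (FAMA, 1.33) and 1 lower (KAT1, −1.16), with a median of −0.17. Phloem markers had 1 of 6 higher (SWEET11, 1.32) and a median of 0.74. Xylem markers had 2 of 4 measured members lower, XCP1 with −2.45 at its brightest spot and 0.94 at its highest and VND7 with −1.47, with a median of −0.91. Epidermis markers had 1 of 4 lower (GL2, −2.46) and a median of 0.39, and root markers had 2 of 9 higher (WOX5 with 1.53, SHR with 1.19) and a median of 0.47. Seed storage genes had 2 of 10 lower, CRB (AT1G03880) with −1.02 and SESA1, and a median of 0.10. SESA1 was not above background under water stress. Its log2 difference was −2.85 against the lowest level of gene spots above background there, which is no strict bound, and a measured −1.56 under median scaling. None of 4 pollen markers passed 2-fold, and their median was 0.10. In leaf RNA, fewer cells of a type and less RNA per cell cannot be told apart.

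Outside the lists, the rule took the 15 highest and 15 lowest named loci. The highest was UGT73C7 (AT3G53160), a glycosyltransferase gene, with 14317 under water stress and 52.1 under normal growth. There it was not above a local background of 52.5, and below the 5th percentile of negative control spots, 80.2. Against the lowest level of gene spots above background on that array its log2 difference was 8.23, which is no strict minimum. UGT73C7 had 1 spot, and its measured difference ran from 7.46 with blocks centred to 9.33 under median scaling. GLY2, a glyoxalase, read 3902 against 389, with 4.02, and AO1 (AT4G14940), a copper amine oxidase, read 6335 against 852, with 3.85. Next came SK10, a SKP1-like ubiquitin ligase subunit, with 3.72, CPUORF7 with 3.59, the thylakoid formation gene PSB29 with 3.52 and CRF7, a cytokinin response factor, with 3.51. WRKY25, a transcription factor of heat and salt responses, read 1214 against 128, with 3.47. The others, LLG1, SDG4, HYP1, TOP1ALPHA, NCRK, RALFL33 and EMB506, lay between 3.29 and 3.49. All 15 had 1 spot each, and 1 of them had a difference above 5. Under normal growth all 15 read below the empty-spot floor of 5668. Most lay in block column 1, where higher spots were commonest: UGT73C7, AO1, CPUORF7, PSB29, CRF7, LLG1, SDG4, HYP1, TOP1ALPHA, NCRK and EMB506. With blocks centred LLG1 had 2.66 and HYP1 2.72, while GLY2 and SK10 had 4.06 and 3.88. Whether slide position set these values was not tested.

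The lowest named locus was CDPK1 (AT1G18890), a calcium-dependent protein kinase, with 169 under water stress and 14762 under normal growth and a log2 difference of −6.12. The myosin gene XIB read 451 against 21781, with −5.05, and the Nudix hydrolase gene NUDT17 read 292 against 11579, with −4.89. The pleckstrin homology protein PH1 had −4.83, the glutathione transferase GSTU23 −4.76, the cytochrome P450 CYP71B9 −4.72 and MEE38 −4.59. All 7 exceeded the empty-spot floor of 5668 under normal growth, and all but XIB and CYP71B9 were under the floor of 400 under water stress. UBC8, a ubiquitin-conjugating enzyme, had −4.42 at its brightest spot, and its other 3 spots lay at −0.64, −0.25 and −0.02. TIF3H1, a subunit of translation initiation factor 3, had −4.12, −1.49 and −0.57. The chromatin remodeller SWI2, the proton pyrophosphatase VP2, the histone deacetylase HDA9, CIP1, EIF2 GAMMA and PGGT-I lay between −4.23 and −3.89. Of the 15 lowest, only NUDT17 was printed in block column 1.

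The AhNF-YC-OE channel of the same 2 slides gave the same contrast in the transgenic line, with 3782 loci (14.5%) at least 2-fold higher and 3763 (14.5%) lower. Of the loci higher in wild type, 2834 were also higher in AhNF-YC-OE, which is 76.9% of the wild-type calls and 74.9% of the AhNF-YC-OE calls. For lower loci it was 3009, which is 81.3% and 80.0%. No locus passed 2-fold upward in one genotype and downward in the other. The log2 differences correlated across loci at r = 0.93 (Spearman 0.89), with a median gap of 0.25 in size. The channels share slides, spots and local background, so genotype agreement is no replicate of the drought difference.

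Of the 12 drought genes named whatever their value, the 4 past 2-fold in wild type had like values in the other channel, KIN1 excepted. COR47 had 2.57 in wild type, against 2.87 in AhNF-YC-OE. ANAC055 had 2.64 and 3.05, and ERD10 had 2.0 and 2.25 at the brightest spot. KIN1 had 1.62 and 0.99, PYL2 1.60 and 0.55, and ORE1 1.13 and 0.30, so these 3 passed 2-fold in wild type alone. So did other list members, among them PYL5 with 1.48 and 0.61, CYP707A4 with 1.48 and 0.60 and HB-12 with 1.28 and 0.78. Which members passed it in AhNF-YC-OE alone is not given here, and the gap between genotypes was not tested. The contrast of recovery with normal growth in wild type shares the normal growth array, and its values stand beside the others only as values. It gave COR47 1.72, ANAC055 2.56, ERD10 1.5, KIN1 1.49 and KIN2 0.64. CDPK1 had −6.60 there, and UGT73C7 a measured 7.44 from the same spot that was not above background under normal growth.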

How the data were processed

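Loci are named by the annotation in the files (per the file headers, from TAIR release 7 and TIGR release 5); 25818 of 26017 loci were found in a RefSeq table of TAIR10.1, used for names only. The authors deposited, per the file headers, the raw mean intensity of each spot, its local background and the SD of that background, for 30000 spots in 48 blocks of 25 by 25, and separately a normalized intensity by a method that no source used here names. The dyes are Cy3 and Cy5 in the label fields and Alexa dyes in the labelling protocol. From the deposited raw intensity, background was corrected with normexp (offset 50) and the wild-type channels were quantile normalized on gene spots (limma 3.58.1, R 4.3.3). The brightest spot by mean level stood for a locus, a locus counted when above the local background mean plus 2 SD on either array, and a call is 2-fold. Where the dimmer spot was not above background, the difference was taken against the lowest level of gene spots above background on that array, or its own level if higher. That level is not the detection limit of the spot itself, so the difference is no strict bound. Tables were made with Python 3.11.15, numpy 2.4.6 and pandas 2.3.3, and the steps were tested on simulated data. The simulation had no effect of slide position and less noise than the spread between spots of the 11 loci with 13 or more spots. It therefore cannot say how accurate the calls are on these slides. There are no replicates and no tests, and the 1 array a side limits the precision.

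The comparison, the named genes and the lists were chosen with earlier results of these data known. Named were the 15 highest and 15 lowest loci with a symbol, 1 sign over spots, a brightest spot above 95% of empty spots on the array where it is brighter and a change of 1.5-fold or more in the same direction with background left in; up to 4 members of each list past 2-fold; up to 12 loci with 3 or more spots all past 2-fold one way; and 12 drought genes. Loci with 13 or more spots and list members given beyond the 4 were picked after values were seen. There were 11 alternatives. Promoter motifs were not analysed here.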

Additional observations from a re-analysis of the deposited data

Results flagged for a closer look

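Spots that hold no plant gene carried signal. Among the negative control spots, 20.1% were at least 2-fold higher under water stress and 1.39% at least 2-fold lower, and their cause was not tested. Of the spots annotated as empty, 90.6% lay above their local background in wild type under water stress and 89.2% under normal growth.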

How the results depend on the processing

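The counts of loci past 2-fold (3684 higher and 3700 lower) stayed within 1.5 times under 9 of the 11 alternatives. Scaling to the same median gave 12474 higher and 2023 lower, and keeping only loci brighter than 95% of empty spots on both arrays gave 947 higher and 2035 lower out of fewer loci tested. Among named genes, ANAC019 turned to 0.0565 under median scaling, against −1.62, and LHY turned to −0.14 without background correction. Of the other named genes, 16 lost their 2-fold call under median scaling, 10 under loess between the arrays, 8 with print blocks centred and at most 3 under any other alternative. All 16 had been called lower, among them JMJD5 (−0.85), PDIL5-1 (−0.40), ERD14 (−0.53), TPS1 (−0.76), UBQ10 (−0.71) and KAT1 (−0.70). The 8 were KIN1, P5CR, ORE1, HVA22D (0.91), GAPA (0.91), HSFA6B (0.90), XTH9 (−0.72) and CRB (−0.97). Median scaling also brought RD29A (1.66), RAB18 (1.35), RD22 (1.04), RD26 (1.41) and COR15A (1.15) past 2-fold upward. List medians moved up under median scaling, where that of all loci was 0.94. The correlation of the log2 difference between spots of one locus was 0.11 under median scaling, against 0.18. No replicate was left out, since there was 1 array a side, and no paired analysis was possible because the labels carry no replicate numbers. The filters on dim spots give no value of their own for a single gene, and promoter motifs were not run. Depth is not defined for arrays; signal over background was 26.3 under water stress and 85.9 under normal growth over gene spots, and 1.21 and 2.03 over empty spots.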
